A study of Mus musculus with 12 samples.

Results

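The genes described here are 44 genes of the cell cycle and of DNA replication, among them cyclins and their kinases, spindle checkpoint proteins, the replicative helicase and the enzymes that make and join new DNA. Every probe set annotated to 1 of the 44 symbols was taken, on all 12 arrays. 41 of the 44 genes had a probe set of their own, and together these had 57 probe sets. 25 genes had at least 1 probe set bright enough to be tested and 16 had dim probe sets only. Dim means a mean log2 signal over the 12 arrays under the 40th percentile of such means of all probe sets. The share tested was 61% of the 41 genes, against 69.5% of the 8251 genes measured. Ccnb1 and Bub1b had no probe set, and Tyms only ones shared with its pseudogene Tyms-ps, so no value is given for these 3.

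RNA of whole lung from A/J mice (Jackson Labs) was hybridised to Affymetrix MG_U74Av2 arrays, 1 per sample. A/J is an inbred strain known for its susceptibility to lung tumours. All mice were controls that had received saline and no other agent, and the groups differ in time since that injection. 7 arrays were from 42 weeks (titled LZ22 to LZ25 and LZ61 to LZ63) and 5 from 24 to 26 weeks (titled AJ1, AJ2, AJ4, LZ2 and LZ3). Neither age nor sex of the mice is stated in the labels. Since the labels do not tie each sample to an animal of its own, the p-values cover only the variation among these 12 samples. The letters and number ranges of the titles are not explained either, and each of the 4 ranges had an array run day of its own, so title range and run day cannot be told apart. They were compared within each time point, as AJ against LZ2 and LZ3, and as LZ61 to LZ63 against LZ22 to LZ25.

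Cyclins bind and activate cyclin-dependent kinases: the D cyclins with Cdk4 act in G1, the E cyclins with Cdk2 at entry into S phase, and the A and B cyclins with Cdk1 up to mitosis. Release of E2F factors from the retinoblastoma protein turns on the genes for the helicase, the polymerases and the enzymes of nucleotide supply. Most cells of adult lung are not dividing, and in whole tissue a lower signal from fewer dividing cells and one from less RNA per cell cannot be told apart.

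The tissue was checked with 10 measured lung markers of 12 listed, among them Sftpc, Scgb1a1 and Pecam1, whose summed signal was 93199 to 133746 at 42 weeks and 76713 to 127180 at 24 to 26 weeks. LZ63 stood apart: its summed signal of skeletal muscle markers was 60485, against 1126 to 2031 on the other 11 arrays, and that of squamous epithelium markers 41398, against 800 to 1526. LZ22 and LZ24 had cardiac muscle sums of 1968 and 1893, below the other arrays. On the AJ arrays the brightest probe set read 19066 to 21497, against 29121 to 43011 on the LZ arrays. The number of arrays limits the precision: over the tested probe sets, the standard error of a log2 difference had a median of 0.148 between time points, 0.203 for AJ against LZ2 and LZ3, and 0.170 for LZ61 to LZ63 against LZ22 to LZ25.

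Promoter windows of 300 bases, 250 before to 50 after the annotated start, were at hand for 36 of the 44 genes (40 windows, RefSeq, build GRCm38.p6). They were searched on both strands for the CCAAT box (CCAAT), the cell cycle homology element (TTTGAA) and 4 spellings of the E2F site (TTTCGCGC, TTTGGCGC, TTTCCCGC and TTTGGCGG). CCAAT was in 65.0% of the 40 windows, against 37.4% of all 32851 windows. TTTGAA was in 30.0% of them, against 17.9% of all. An E2F spelling was in 25% of the 40 windows and in 2.4% of all. CCAAT and TTTGAA, which meet in promoters of genes active in G2 and mitosis, occurred together in 30.0% of the 40 windows (12 windows) and in 7.0% of all. A match describes the letters and not a bound site. LZ61 to LZ63 did not overlap LZ22 to LZ25 for a tested probe set of 8 genes. These were 27.6% of the 29 tested probe sets, against 16% of all. Only Pcna and 1 probe set of Plk1 passed 5% false discovery in limma. Of the 8 genes, Ccnd2 had no window at hand. Mad2l1, Cdk4 and Ccne1 had windows with 0 matches of any of these spellings, which are not printed. Shown are the windows of the 4 that had a match: the clamp gene Pcna (chr2:132253131-132253430, minus strand), the mitotic kinase gene Plk1 (chr7:122159185-122159484, plus strand), the B cyclin gene Ccnb2 (chr9:70421505-70421804, minus strand) and the helicase gene Mcm5 (chr8:75109259-75109558, plus strand). Capitals mark the motif matches.
Pcna: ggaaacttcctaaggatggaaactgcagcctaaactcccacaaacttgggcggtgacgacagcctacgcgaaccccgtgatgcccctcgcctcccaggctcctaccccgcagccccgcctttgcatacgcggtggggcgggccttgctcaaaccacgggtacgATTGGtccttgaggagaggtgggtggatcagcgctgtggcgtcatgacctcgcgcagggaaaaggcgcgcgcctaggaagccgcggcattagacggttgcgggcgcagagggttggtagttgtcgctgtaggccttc
Plk1: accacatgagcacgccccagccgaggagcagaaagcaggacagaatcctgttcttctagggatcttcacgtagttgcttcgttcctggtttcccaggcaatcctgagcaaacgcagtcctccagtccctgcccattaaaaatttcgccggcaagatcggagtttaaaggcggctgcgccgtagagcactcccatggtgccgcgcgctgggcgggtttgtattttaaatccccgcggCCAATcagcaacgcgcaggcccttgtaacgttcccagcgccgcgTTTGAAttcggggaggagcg
Ccnb2: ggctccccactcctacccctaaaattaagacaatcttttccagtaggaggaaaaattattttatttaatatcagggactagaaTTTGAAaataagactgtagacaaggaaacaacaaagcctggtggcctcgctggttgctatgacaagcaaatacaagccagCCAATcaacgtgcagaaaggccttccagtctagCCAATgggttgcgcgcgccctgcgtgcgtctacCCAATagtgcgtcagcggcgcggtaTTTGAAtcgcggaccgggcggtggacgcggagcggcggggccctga
Mcm5: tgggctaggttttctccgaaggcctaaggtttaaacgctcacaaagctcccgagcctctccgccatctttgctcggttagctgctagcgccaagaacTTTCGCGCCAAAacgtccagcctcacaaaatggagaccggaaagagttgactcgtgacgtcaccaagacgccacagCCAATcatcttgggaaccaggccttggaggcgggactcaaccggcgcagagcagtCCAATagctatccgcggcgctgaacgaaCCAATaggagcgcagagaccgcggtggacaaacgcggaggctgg
With the start base as 0, the Ccnb2 window held CCAAT at -87, -54 and -21 and TTTGAA at -167 and 4. Plk1 had 1 CCAAT at -14 and 1 TTTGAA at 30. In the Mcm5 window 2 E2F spellings began at -153 and -149 and overlapped, and CCAAT lay at -77, -22 and 6. The Pcna window had a single match, a CCAAT on the reverse strand at -87.

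The spread of each of the 25 tested genes was taken over the 12 arrays and was not set against that of all genes. The ratio of the highest to the lowest signal was 1.93 at the median, under 2 for 13 genes, 2 to 3 for 8 and 3 or more for 4. Cdc20, the activator of the anaphase promoting complex, had the lowest ratio at 1.51, and the D cyclin gene Ccnd2 the highest at 4.81. The heatmap of all 12 arrays shows how these departures fall.

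**Figure D1:**
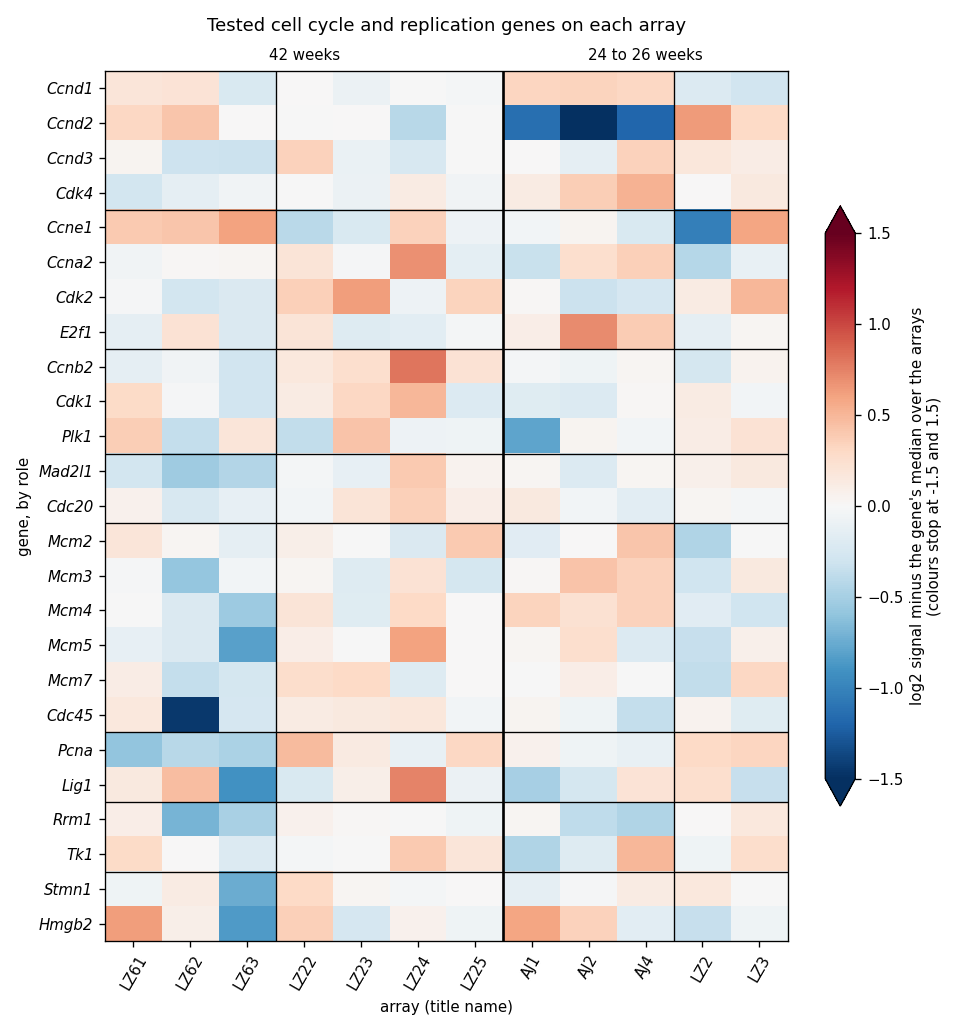
Log2 signal of each of the 25 tested genes (rows, by role, black lines between roles) on each array (columns) minus that gene's median over the 12 arrays, with 42 weeks left of the thick line. Ccnd2 is low on the 3 AJ arrays, Pcna is low on LZ61 to LZ63, Ccna2, Ccnb2, Mcm5 and Lig1 are high on LZ24, and Cdc45 is low on LZ62.

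The comparison of 42 weeks with 24 to 26 weeks asks whether proliferation genes of control lung differ with time. None of the tested genes passed the test. Of the 29 tested probe sets 0 passed 5% false discovery in limma, where 6 of all 7453 did (0.0805%). At an unadjusted p under 0.05 there was 1 of 29 (3.4%), against 14.7% of all probe sets. Nor did the 2 groups separate for any of the 29, where 1.5% of all probe sets had groups that did not overlap. An exact permutation test over the 792 splits of the arrays, adjusted in the same way, called 0 probe sets. Its smallest p was 0.00126, which after adjustment over 7453 probe sets leaves little room for any call, so nothing is concluded from it. Each run day held 1 time point, and with run day as a random block 0 of the 29 passed, the smallest adjusted p being 0.712 for Cdk4. 11 of the 25 genes had a mean above, and 14 below, that of 24 to 26 weeks, and 43.1% of all probe sets had a mean above it. The median log2 difference of the 25 was -0.02, against -0.04 over all tested genes.

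Among the D cyclins and their kinase, Cdk4, the partner of the D cyclins in G1, had the smallest p. Its brighter probe set read 1119 to 1471 at 42 weeks, with a median of 1301, and 1471, 1746, 1934, 1355 and 1489 at 24 to 26 weeks. The groups overlapped, and the 2 highest values were on AJ2 and AJ4. The mean was 1291 ± 107 (SD, n = 7) at 42 weeks and 1599 ± 236 (SD, n = 5) at 24 to 26 weeks, a log2 difference of -0.30 ± 0.10 (SE) with an adjusted p of 0.226 in limma. Its dimmer probe set differed by -0.17 (adjusted p = 0.704 in limma).

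Ccnd2, the D cyclin with the widest range, read 225 to 400 at 42 weeks, with a median of 300.4. At 24 to 26 weeks it read 136, 96.6 and 131 on the AJ arrays, against 465 and 366 on LZ2 and LZ3. The AJ arrays lay below all 7 arrays of 42 weeks, LZ2 above them and LZ3 among them. The log2 difference of 0.65 ± 0.35 (SE) had an adjusted p of 0.41 in limma. Set against the AJ arrays alone it was 1.36 (adjusted p = 0.0023 in limma), and with the title prefix as a block, which compares within the LZ arrays, it was -0.42 (adjusted p = 0.80).

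Ccnd1, the D cyclin most often amplified in human tumours, averaged 1871 ± 194 (SD, n = 7) at 42 weeks and 2018 ± 415 (SD, n = 5) at 24 to 26 weeks by its brighter probe set, a log2 difference of -0.09 (adjusted p = 0.79 in limma). Its dimmer probe set differed by 0.24, the other way (adjusted p = 0.54). Ccnd3, the third D cyclin, averaged 1220 ± 210 (SD, n = 7) at 42 weeks and 1376 ± 172 (SD, n = 5) at 24 to 26 weeks (log2 difference -0.18, adjusted p = 0.52 in limma). Every one of these ranges overlapped between the time points.

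**Figure D2:**
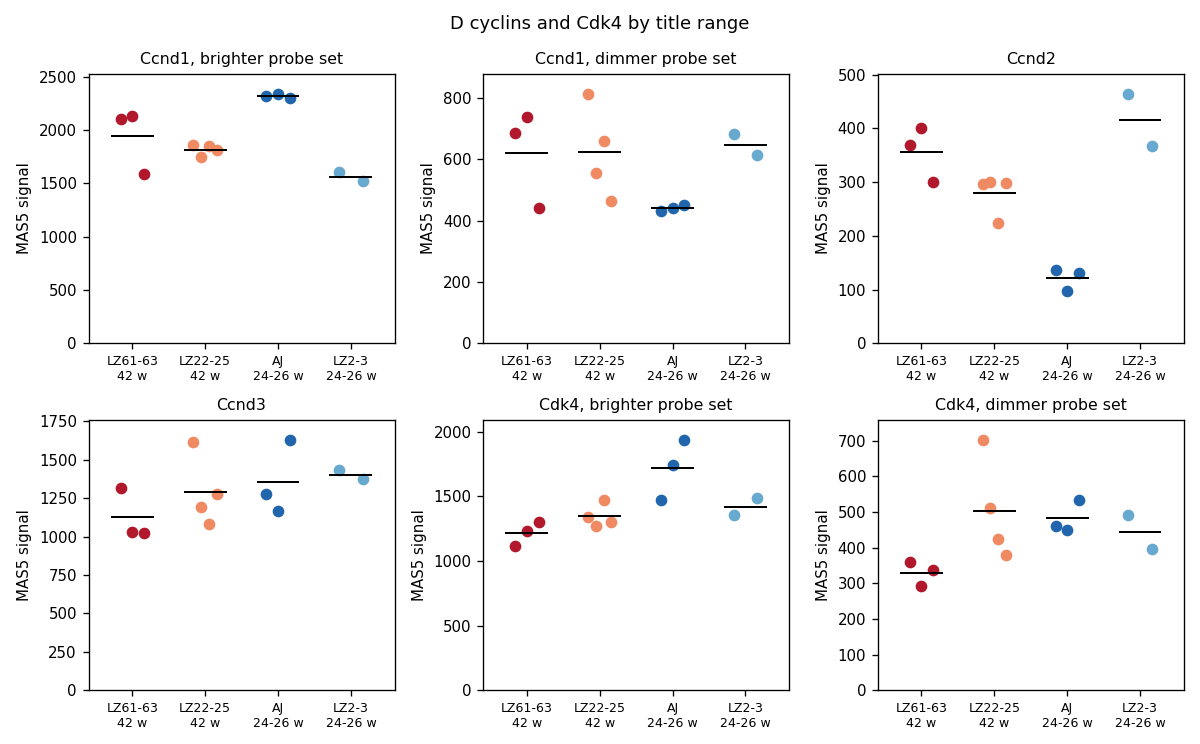
MAS5 signal of the D cyclins and Cdk4 on each array (points), by title range, with 42 weeks left of 24 to 26 weeks; black lines are range means. Ccnd2 on the AJ arrays (96.6 to 136) lies below every LZ array (225 to 465), while the 2 probe sets of Ccnd1 differ in opposite directions between AJ and LZ2 and LZ3.

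At entry into S phase, E2f1, the transcription factor that the retinoblastoma protein holds back, read 102 to 139 at 42 weeks with a median of 109, and 128, 195, 156, 109 and 122 at 24 to 26 weeks. Its log2 difference was -0.26 ± 0.17 (SE; adjusted p = 0.50 in limma), and the highest values were on AJ2 and AJ4. Ccne1, the cyclin that drives S phase entry, read 203 to 408 at 42 weeks with a median of 342, and 261, 277, 230, 131 and 405 at 24 to 26 weeks. LZ2 and LZ3, of 1 time point and 1 title range, were near its lowest and highest values, and the log2 difference was 0.28 ± 0.24 (SE; adjusted p = 0.61 in limma). Ccna2, the cyclin of S phase and G2, differed by 0.16, and Cdk2, the kinase of cyclins E and A, by 0.09 on the log2 scale.

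Of the mitotic genes, Ccnb2 read 348 to 739 at 42 weeks with a median of 474, and 416, 408, 434, 355 and 441 at 24 to 26 weeks. All 5 arrays of 24 to 26 weeks lay inside the 42 week range (log2 difference 0.19 ± 0.16, SE; adjusted p = 0.61 in limma). Cdk1, the kinase that starts mitosis, read 119 to 206 at 42 weeks with a median of 158, against 126 to 159 at 24 to 26 weeks (0.16 ± 0.16, SE; adjusted p = 0.69). Plk1, the kinase of centrosome maturation and mitotic exit, had 2 tested probe sets, with log2 differences of 0.11 (brighter) and -0.43 (dimmer) and adjusted p of 0.84 and 0.63 in limma. The spindle checkpoint gene Mad2l1 averaged 198 ± 44.6 (SD, n = 7) at 42 weeks and 216 at 24 to 26 weeks (log2 difference -0.15, adjusted p = 0.70 in limma). Cdc20, which that checkpoint inhibits, averaged 396 ± 55.4 (SD, n = 7) at 42 weeks and 378 at 24 to 26 weeks (0.06, adjusted p = 0.87 in limma).

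Tested genes of the MCM helicase were Mcm2, Mcm3, Mcm4, Mcm5 and Mcm7, subunits of the ring that unwinds DNA, and Cdc45, which completes the active helicase. Their log2 differences ran from -0.25 for Mcm3 to 0.09 for Mcm2. Mcm3 averaged 318 ± 53.2 (SD, n = 7) at 42 weeks and 379 (n = 5) at 24 to 26 weeks by its brighter probe set (adjusted p = 0.47 in limma), while its dimmer one differed by 0.17. Mcm4 differed by -0.16 (adjusted p = 0.70) and Mcm7 by -0.03 (adjusted p = 0.96). For Mcm7 the 95% interval of the log2 difference was -0.34 to 0.29, so a change of that size in either direction is not excluded.

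At the fork, Pcna, the sliding clamp that holds the polymerase on DNA, read 762 to 1594 at 42 weeks with a median of 1060, and 1197, 1094, 1060, 1404 and 1430 at 24 to 26 weeks. The 3 lowest of the 42 week values were LZ61, LZ62 and LZ63, below every other array. The log2 difference was -0.20 ± 0.18 (SE; adjusted p = 0.63 in limma). Lig1, the ligase that joins lagging strand fragments, differed by 0.16 (adjusted p = 0.80). Rrm1, the large subunit of ribonucleotide reductase, differed by -0.02, and Tk1, the S phase thymidine kinase, by 0.08 (adjusted p = 0.97 and 0.87 in limma). Stmn1, a protein that destabilises microtubules, averaged 2172 ± 427 (SD, n = 7) at 42 weeks and 2252 at 24 to 26 weeks. Its log2 difference and that of Hmgb2, a DNA-bending chromatin protein, were both -0.08 (adjusted p = 0.85 and 0.92 in limma).

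**Figure D3:**
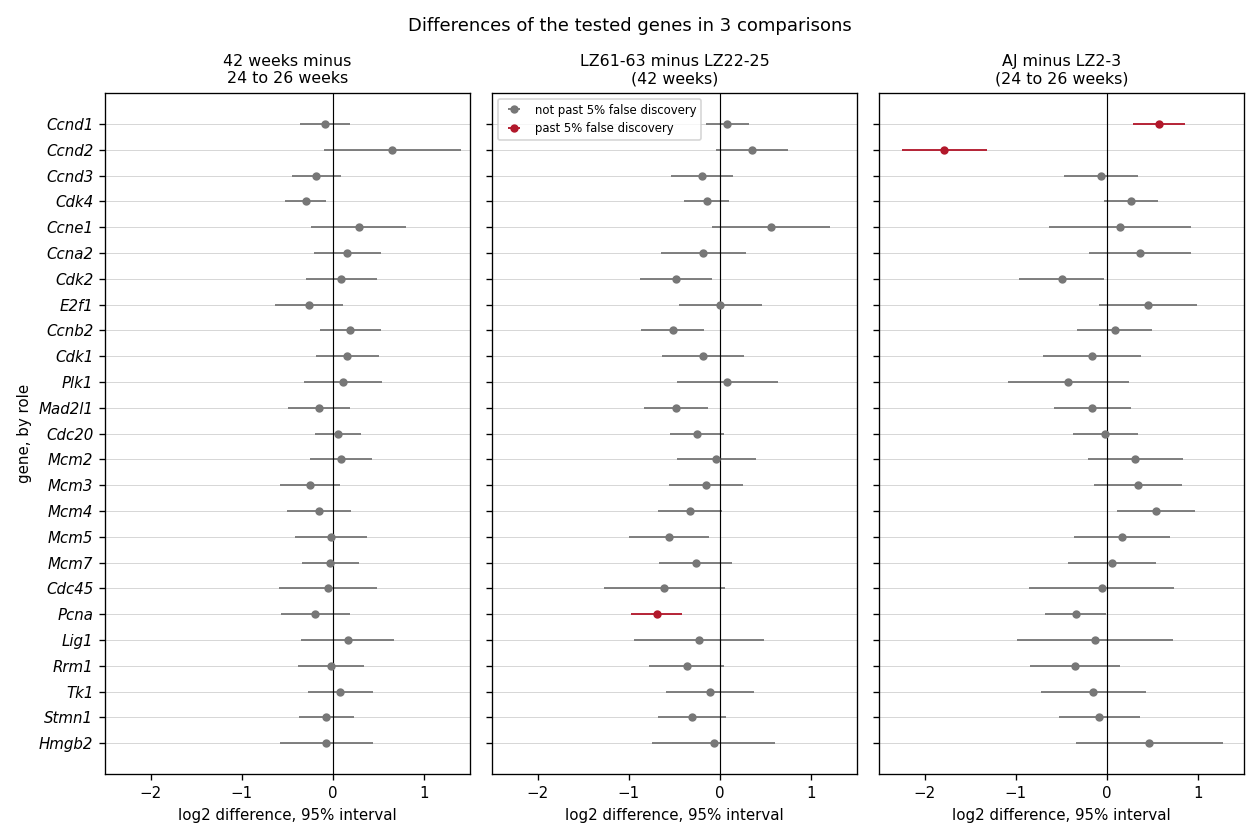
Log2 difference of each tested gene (brightest probe set) with its 95% interval in limma, for 42 weeks minus 24 to 26 weeks (left), LZ61 to LZ63 minus LZ22 to LZ25 (middle) and AJ minus LZ2 and LZ3 (right). No gene is past 5% false discovery on the left, Pcna is in the middle, and Ccnd1 and Ccnd2 are on the right; the dimmer probe set of Plk1, also past it between the 42 week ranges, is not drawn.

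Within 42 weeks, LZ61 to LZ63 were set against LZ22 to LZ25, which share 1 time point and differ in title range and run day. Pcna was lower and the dimmer tested probe set of Plk1 higher. These were 2 of the 29 probe sets (6.9%), where 1.5% of all probe sets passed 5% false discovery (0.416% higher and 1.09% lower). The groups did not overlap for 8 of the 29 (27.6%), against 16% of all (3 apart and higher, with 6.45% of all, and 5 apart and lower, with 9.53% of all). At an unadjusted p under 0.05 there were 7 of 29 (24.1%), against 19.8% of all. 20 of the 25 genes had a lower mean on LZ61 to LZ63, a count taken after the values were seen, where 47.9% of all probe sets had a higher one. The median log2 difference of the 25 was -0.19, against -0.02 over all tested genes. Without LZ63 that count was 16, and without LZ22, LZ24 and LZ63 it was 15.

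Pcna read 762, 860 and 824 on LZ61 to LZ63, against 1594, 1261, 1060 and 1416 on LZ22 to LZ25. The highest of the first range lay below the lowest of the second. It was 1.62-fold lower, a log2 difference of -0.69 ± 0.13 (SE; adjusted p = 0.0347 in limma). Without LZ63 the log2 difference was -0.70, but the adjusted p was 0.0504, and without LZ22, LZ24 and LZ63 they were -0.72 and 0.0852. The call was near its threshold.

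Plk1 gave different answers by probe set. The dimmer tested one read 255, 304 and 148 on LZ61 to LZ63, against 108, 47.3, 99.9 and 89.0 on LZ22 to LZ25. All of the first lay above all of the second, with a log2 difference of 1.46 ± 0.32 (SE; adjusted p = 0.0437 in limma). The call was lost when any 1 array other than LZ63 was left out (adjusted p of 0.0514 to 0.0884) and under 4 of 7 other settings. The brighter one read 228, 138 and 199.6 on LZ61 to LZ63, against 136, 238, 168 and 169 on LZ22 to LZ25, which overlap (log2 difference 0.08, adjusted p = 0.90). In the array's naming the f suffix of the dimmer set marks probes shared by a family of similar sequences, so its signal cannot be assigned to Plk1 alone. The tested probe set of E2f1 has the same suffix. Other suffixes stand on the brighter Plk1 set (g), the brighter Mcm3 set (s) and the Hmgb2 set (r), whose specificity was not checked.

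Ccnb2 read 386, 408 and 348 on LZ61 to LZ63, against 474, 509, 739 and 494 on LZ22 to LZ25. Mad2l1 read 176, 148 and 158 on LZ61 to LZ63, against 209, 196, 279 and 221 on LZ22 to LZ25. In both genes the ranges were apart, and neither passed the test: the log2 differences were -0.52 ± 0.16 and -0.49 ± 0.16 (SE), with adjusted p of 0.106 and 0.132 in limma. Mcm5, singled out after its values were seen, read 481, 451 and 298 on LZ61 to LZ63, against 562, 519, 791 and 525 on LZ22 to LZ25 (-0.56 ± 0.20, SE; adjusted p = 0.163). Without LZ63 the Mcm5 difference was -0.34, and without LZ24 it was -0.41. The dimmer Cdk4 probe set was also apart and lower, at 360, 291 and 338 on LZ61 to LZ63, against 701, 511, 424 and 380 on LZ22 to LZ25 (-0.58, adjusted p = 0.126 in limma), while the brighter one differed by -0.15.

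**Figure D4:**
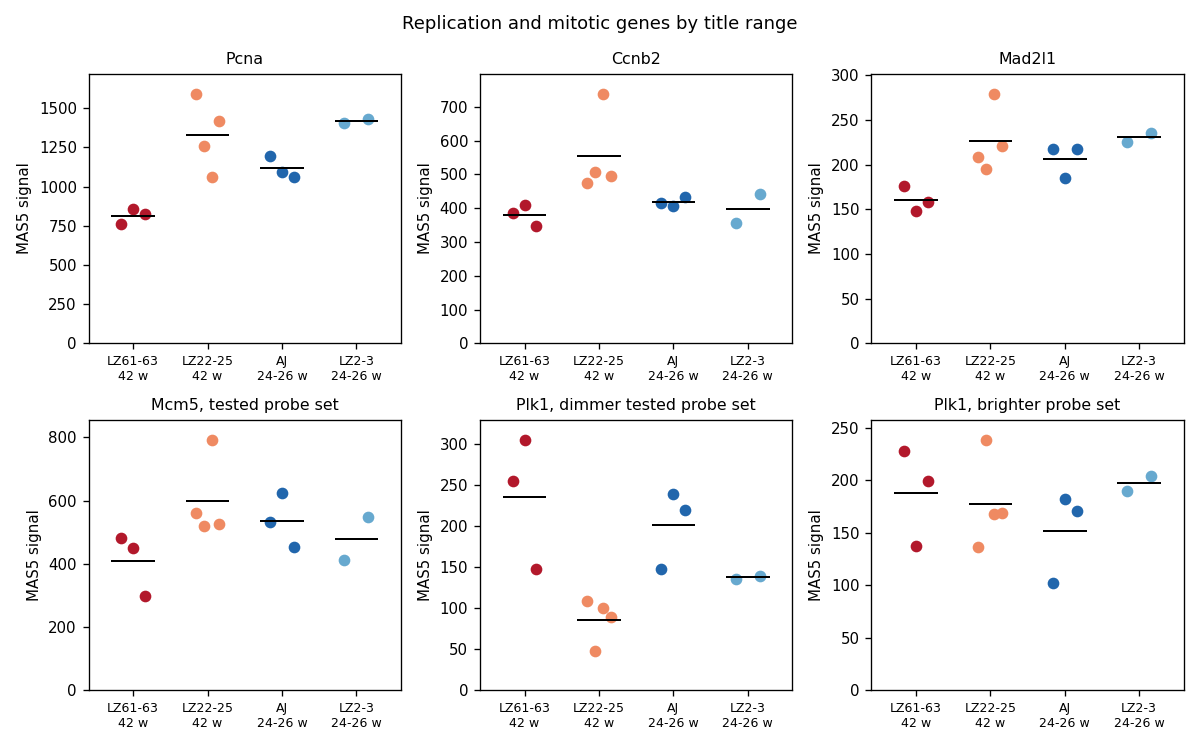
MAS5 signal of Pcna, Ccnb2, Mad2l1, Mcm5 and both tested Plk1 probe sets on each array (points), by title range, with 42 weeks left of 24 to 26 weeks; black lines are range means. Pcna on LZ61 to LZ63 (762 to 860) lies below all other arrays (1060 to 1594), and the Plk1 probe sets disagree.

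Of the 5 genes with a higher mean on LZ61 to LZ63, Ccnd2 and Ccne1 had ranges apart, and neither passed the test. Ccnd2 read 369, 400 and 301 on LZ61 to LZ63, against 297, 300, 225 and 297 on LZ22 to LZ25, with nearest arrays at 301.1 and 300.4 (log2 difference 0.35, adjusted p = 0.302 in limma). Ccne1 read 352, 358 and 408 on LZ61 to LZ63, against 203, 229, 342 and 254 on LZ22 to LZ25 (0.56, adjusted p = 0.324). Marker genes of other tissues and cells also differed between these ranges, mostly without passing the test. All 7 tested cardiac muscle genes had a higher mean on LZ61 to LZ63, with a median log2 difference of 2.61. So did all 4 of skeletal muscle (2.38), all 3 of squamous epithelium (1.83), all 3 of adipose tissue (1.1) and all 4 of neutrophils (0.87). Single arrays carried several of these. The median log2 departure of skeletal muscle genes from their own medians was 4.83 on LZ63, 0.12 on LZ61 and -0.60 on LZ62. For squamous genes it was 5.07, 0.02 and 0.15 on the same arrays. Cardiac genes were at -4.36 on LZ22 and -4.31 on LZ24, and at -0.67 on LZ62. Among macrophage genes 7 of 9 had a lower mean (median -0.49), of which 1 passed. Their part in the differences was not tested.

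Within 24 to 26 weeks, the AJ arrays were set against LZ2 and LZ3. Both calls among the 29 probe sets were D cyclins: Ccnd2 was lower and the brighter Ccnd1 probe set higher on the AJ arrays. That is 6.9% of the members' probe sets, where 2.5% of all passed 5% false discovery (1.13% higher and 1.37% lower). The groups did not overlap for 10 of the 29 (34.5%), a share below the 41.1% of all probe sets (4 apart and higher, with 22.9% of all, and 6 apart and lower, with 18.1%). An unadjusted p under 0.05 was found for 6 of 29 (20.7%) and for 17.9% of all. The genes' median log2 difference was -0.02, against 0.04 over all tested genes.

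Ccnd2, with the values given above, was 3.45-fold lower on the AJ arrays than on LZ2 and LZ3, a log2 difference of -1.78 ± 0.22 (SE; adjusted p = 0.0043 in limma). It was below every LZ array of either time point. The difference was -1.96 with an adjusted p of 0.0518 when LZ3 was left out, the one array whose removal ended the call. Ccnd2 promotes G1 progression in lymphocytes and other cells. Some marker sums separated the same arrays: those of lung cells were 76713 to 79926 on AJ arrays and 104414 to 127180 on LZ2 and LZ3, those of erythroid cells 21402 to 25121 on AJ arrays and 31129 to 34937 on LZ2 and LZ3, and those of plasma cells 8860 to 12339 on AJ arrays and 5180 to 8189 on LZ2 and LZ3. The summed signals of T cell markers (2372 to 2645 on AJ arrays, 2312 to 2693 on LZ2 and LZ3) and of B cell markers (3878 to 4603 on AJ arrays, 4007 to 4548 on LZ2 and LZ3) overlapped between these arrays. Gene by gene, 8 of the 10 tested lung cell genes had a lower mean on the AJ arrays than on LZ2 and LZ3. The erythroid and plasma cell genes were mixed: 3 of 7 erythroid genes were lower and 4 higher, and 3 of 6 plasma cell genes were lower and 3 higher. The part of these cells in the Ccnd2 difference was not tested.

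The brighter Ccnd1 probe set read 2318, 2343 and 2301 on the AJ arrays, against 1608 and 1522 on LZ2 and LZ3. AJ values were tight and above every other array. The log2 difference was 0.57 ± 0.13 (SE; adjusted p = 0.0423 in limma). The dimmer one read 433, 442 and 450 on the AJ arrays, against 682 and 612 on LZ2 and LZ3, with no overlap and without passing the test (-0.55 ± 0.24, SE; adjusted p = 0.242). Averaged over both probe sets the difference was 0.0094 (adjusted p = 0.99), so no direction is given for Ccnd1. Leaving out any of the 5 arrays of 24 to 26 weeks ended the Ccnd1 call, with adjusted p of 0.0826 to 0.250.

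The other members whose AJ values lay apart from LZ2 and LZ3 did not pass. Mcm4 read 332, 308 and 334 on the AJ arrays, against 234 and 214 on LZ2 and LZ3 (0.54, adjusted p = 0.171 in limma). E2f1 also read higher on the AJ arrays, at 128, 195 and 156, than on LZ2 and LZ3, at 109 and 122 (0.45, adjusted p = 0.378). Pcna read 1197, 1094 and 1060 on the AJ arrays, against 1404 and 1430 on LZ2 and LZ3 (-0.34, adjusted p = 0.269 in limma). Both Pcna ranges lay above LZ61 to LZ63 of 42 weeks. For Cdk2 the log2 difference was -0.50 (adjusted p = 0.246). Mad2l1 differed by -0.16, and the 2 Plk1 probe sets again pointed in opposite directions (-0.42 for the brighter and 0.52 for the dimmer). The lung markers Sftpc and Scgb1a1 were also lower on the AJ arrays (-0.85 and -0.77, adjusted p = 0.015 for both in limma). Whether they bear on the D cyclins was not tested.

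LZ24 and LZ63 often held the extreme values. Over all 41 measured genes, each by its brightest probe set, LZ24 had the highest signal for 11 (26.8%) and the lowest for 0. Of all 8251 genes 8.6% were highest on LZ24 and 9.5% lowest. LZ63 had the highest for 1 and the lowest for 14 (34.1%). Of all genes 12.2% were highest on LZ63 and 17.8% lowest. The 11 on LZ24 were Ccna2, Ccnb2, Cdk1, Aurkb, Mad2l1, Cdc20, Birc5, Mcm5, Cdc45, Lig1 and Top2a, of which Aurkb, Birc5 and Top2a were dim. Aurkb and Birc5 encode a kinase and a partner subunit of the chromosomal passenger complex, and Top2a the topoisomerase that untangles sister chromatids. These genes were picked by their values, so the counts are a description with no test.

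On LZ24 Ccnb2 read 739, against 348 to 509 on the other 6 arrays of 42 weeks. Ccna2 read 414, against 233 to 295. Lig1 read 354, against 112 to 291, and Mcm5 791, against 298 to 562. These arrays share time, strain and treatment, and LZ22, LZ23 and LZ25 also share the run day of LZ24. Other proliferation genes were not high there: Pcna read 1060, against 762 to 1594, Rrm1 274, against 169 to 294, and Stmn1 2168, against 1322 to 2722. Ccnd2 (225, against 297 to 400) and Mcm2 (172, against 181 to 262) were below the other 6 arrays of 42 weeks. On LZ24, 14 of the 25 tested genes lay above their own median, as did 2755 of all 5731 tested genes. LZ24 also had the highest summed signals of erythroid markers (54008, against 21402 to 43560 on the other 11 arrays) and of macrophage markers (19962, against 10673 to 18701). Their part in the pattern was not tested.

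On LZ63 the 14 lowest genes included Ccnd3, Ccnb2, Cdk1, Mcm4, Mcm5, Lig1, Stmn1 and Hmgb2. Stmn1 read 1322 there, against 2009 or more on every other array, and Hmgb2 read 73.1, against 103 or more. Only 4 of the 25 tested genes lay above their own median on LZ63, and 2139 of all 5731 tested genes did. The members' median departure on it was -0.25 on the log2 scale, against -0.09 for all tested genes. With the muscle and squamous sums given above, its macrophage, B cell and T cell sums (10673, 3452 and 2089) were the lowest of the 12 arrays. Whether other tissue in that sample lowered these genes was not tested.

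**Figure D5:**
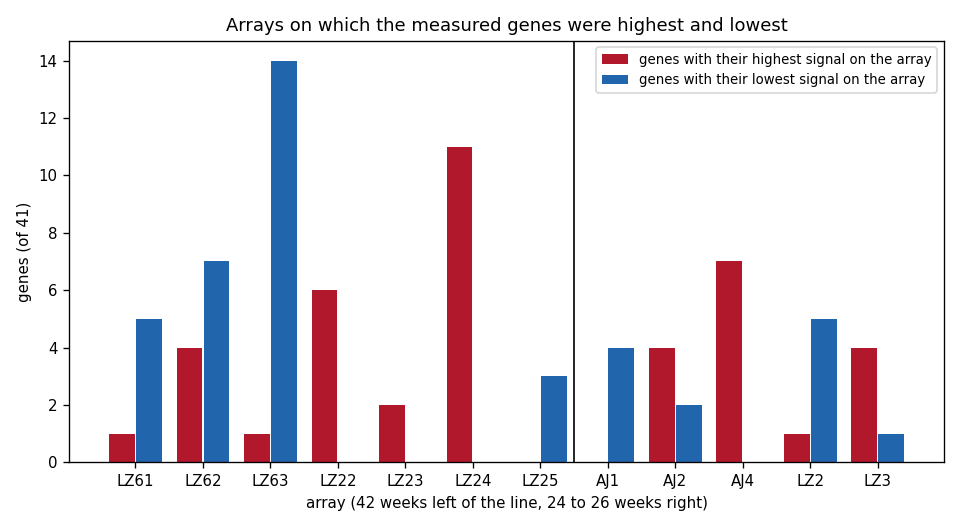
Number of the 41 measured genes whose brightest probe set had its highest (red) or lowest (blue) signal on each array, with 42 weeks left of the line. LZ24 is highest for 11 genes and LZ63 lowest for 14.

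The 16 genes with dim probe sets only were Ccne2, Aurka, Aurkb, Chek1, Bub1, Birc5, Mcm6, Cdc6, Prim1, Pola1, Rrm2, Top2a, Mki67, Kif11, Kif20a and Tacc3. They include the marker of cycling cells used most in pathology, Mki67, and several mitotic genes. With 8 dim probe sets of other members, the 28 dim probe sets read 1.4 to 174.4. Without the filter on dim probe sets 0 of them passed 5% false discovery in limma in any of the 3 comparisons, and the smallest adjusted p was 0.0958. That was Top2a between the 42 week ranges, at 13.6, 23 and 18.4 on LZ61 to LZ63, against 51.0, 51.3, 98.8 and 36.9 on LZ22 to LZ25, which do not overlap. The dim genes nearest the brightness threshold were Rrm2, the small subunit of ribonucleotide reductase, Cdc6, which loads the helicase at origins, and Pola1, the catalytic subunit of polymerase alpha. Rrm2 read 66.3 to 129.9 at 42 weeks and 70.2 to 105 at 24 to 26 weeks, and Cdc6 read 51.2 to 114 at 42 weeks and 77 to 117 at 24 to 26 weeks. Pola1 read 71.1 to 119 at 42 weeks and 84.2 to 134 at 24 to 26 weeks, so the time points overlapped for all 3. Mki67 read 33.1 to 105.6 over its 2 probe sets and all arrays, with adjusted p of 0.461 and 0.892 between the time points. At such signals MAS5 values are noisy, and no level or absence of change is read from them.

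The 9 further lists of cell cycle genes held 214 genes, of which 118 were tested by 133 probe sets. At 42 weeks against 24 to 26 weeks 0 of the 133 passed in limma, and 15.0% had an unadjusted p under 0.05, against 14.7% of all probe sets. The nearest was Ccnl2, a cyclin linked to splicing, at 699 to 988 at 42 weeks, against 912 to 1606 at 24 to 26 weeks (log2 difference -0.61, adjusted p = 0.074), followed by Anp32e, a histone chaperone (-0.40, adjusted p = 0.123), and Cdk8, the kinase of the Mediator complex (-0.36, adjusted p = 0.13 in limma). Among the CDK inhibitors, Cdkn1a (p21) differed by -0.37 by its brighter probe set (adjusted p = 0.36 in limma).

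For AJ against LZ2 and LZ3, 4 of these 133 probe sets passed, a share of 3.0% against 2.5% of all probe sets. Rbl2, a relative of the retinoblastoma protein, was higher by 0.92 and Ccng1, a p53 target, by 1.14 on the log2 scale (adjusted p = 0.0451 and 0.0494 in limma). Ube2s and Anapc4, which act in the anaphase promoting complex, were lower, by a log2 difference of -1.25 for Ube2s and of -0.63 for Anapc4 (adjusted p = 0.0089 and 0.0430). Ube2s read 326, 257 and 216 on the AJ arrays, against 598 and 649. Between the 42 week ranges 2 of the 133 passed, 1.5% as among all probe sets. The dimmer probe set of Set, a histone chaperone, was higher (0.68, adjusted p = 0.0369) and that of Tmpo, a protein of the inner nuclear membrane, lower (-0.80, adjusted p = 0.0347 in limma). The brighter probe set of Set did not differ in the same way (0.02), and that of Tmpo was lower without passing (-0.53, adjusted p = 0.113).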

How the data were processed

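Total RNA of 12 mouse lung samples was extracted with Trizol and biotinylated, per the labels' protocols. The authors' deposited values are linear intensity (MAS5 signal) per probe set, with MAS5 named in the submitters' processing notes. Its version, its scaling target and the build behind the annotation were not stated in these sources. The deposited intensities had nearly the same 2% trimmed mean on every array (spread 0.00897%), and no further scaling was applied. Of 12488 probe sets, 66 controls were left out, and 10833 of the other 12422 had 1 gene symbol in the platform annotation. Probe sets with a mean log2 signal under the 40th percentile (a signal of 108.0) were not tested, which left 7453 for 5731 genes; the brightest stood for its gene.

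Differences were tested on log2 values, with no pseudocount, in limma 3.58.1 (R 4.3.3, statmod 1.5.0; lmFit, eBayes with trend and robust), with two-sided p-values adjusted by Benjamini-Hochberg across the 7453 probe sets and called under 0.05. The time points were compared over 12 arrays without covariates, and the title ranges in 1 fit of 4 groups. The fit was tested on simulated data. Named members are those called in any comparison and up to 2 of each role with the smallest p between time points. Also named are Ccnd1, Ccnd2, Ccnd3, Cdk4, Pcna, Mcm7, Mki67, Top2a, Cdk1, Ccnb1, Rrm1, Stmn1 and Hmgb2. Ccna2, Cdk2, Mcm2, Mcm5, Cdc45, Aurkb and Birc5 were named after their values were seen. So were Rrm2, Cdc6 and Pola1, as the dim genes nearest the brightness threshold. Of the other lists, up to 3 called genes were named, or up to 2 with the smallest p. The members and lists were chosen with earlier results of these data known. Alternatives were other normalizations, filters, weights, blocks and subsets of arrays.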

Additional observations from a re-analysis of the deposited data

Results flagged for a closer look

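At 42 weeks, 3 genes had 1 array far from the other 6 of that time point. Ccnb2 read 739 on LZ24, against 348 to 509 on the others. Ccna2 read 414 on LZ24, against 233 to 295. Cdc45 read 49.7 on LZ62, against 113 to 152. Each gap exceeded Dixon's 95% critical value. 58 groups of arrays were looked at, so these are 5.17% of them, and chance gives about 1 in 20.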

How the results depend on the processing

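Between the time points, limma called 6 of all probe sets and 0 member probe sets. The count over all probe sets was 17 after quantile normalization, 550 with array weights, 1 without LZ22, LZ24 and LZ63, 1 with run day as a random block, 0 by the exact permutation test, 14 with LZ22 to LZ25 alone at 42 weeks, 12 with LZ61 to LZ63 alone, 441 with the AJ arrays alone at 24 to 26 weeks, and 4 to 38 with 1 array left out. A member was called in 2 of these settings: Cdk4 with array weights (1 call, adjusted p = 0.0381) and Ccnd2 against the AJ arrays alone (1 call); with 1 array left out the count was 0 to 0. The members' median log2 difference was 0.10 with LZ22 to LZ25 alone, -0.18 with LZ61 to LZ63 alone, and -0.062 to 0.067 with 1 array left out.

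Signs of uncalled genes turned as follows. With title prefix as a block, Ccnd1 was 0.25, Ccnd2 -0.42, E2f1 0.0048, Plk1 -0.14, Mcm4 0.17, Mcm7 0.0045, Tk1 -0.012 and Hmgb2 0.20. Averaged over probe sets, Ccnd1 was 0.077 and Plk1 -0.16. With LZ61 to LZ63 alone, Ccnb2 was -0.11 and Cdc20 -0.088. With LZ22 to LZ25 alone, Mad2l1 was 0.056, Mcm7 0.086, Pcna 0.10, Rrm1 0.13 and Stmn1 0.054. Mcm7 was 0.0043 after quantile normalization, 0.013 with equal array medians, 0.013 with array weights and 0.0035 without LZ22, LZ24 and LZ63. Rrm1 was 0.028 after quantile normalization, 0.018 with equal array medians, 0.16 with array weights and 0.11 against the AJ arrays alone. Stmn1 was 0.0054 with array weights, and Hmgb2 was 0.027 without LZ22, LZ24 and LZ63. Leaving out 1 array gave -0.18 to 0.065 for Hmgb2, -0.12 to 0.048 for Mcm7, -0.063 to 0.19 for Plk1, -0.11 to 0.067 for Rrm1, -0.14 to 0.038 for Stmn1 and -0.039 to 0.20 for Tk1.

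For AJ against LZ2 and LZ3, the 186 calls became 121 without the filter, 776 with array weights, 381 without LZ22, LZ24 and LZ63, and 0 to 374 with 1 array left out (0 without LZ3, 374 without LZ63). The 2 member calls became 1 with equal array medians, without the filter, and with the filter at the 60th percentile. They also became 1 with eBayes without trend and robust, and averaged over probe sets. With 1 array left out there were 0 to 2. Over the other settings the count ran from 1 to 3. The dimmer Ccnd1 probe set passed in 1 of 8 such settings, lower on the AJ arrays. The call of the brighter Ccnd1 probe set also ended without LZ22, LZ23, LZ24 or LZ25 (adjusted p of 0.0516 to 0.0589 in limma). For LZ61 to LZ63 against LZ22 to LZ25, the 112 calls became 292 with equal array medians, 45 without the filter, 23 with eBayes without trend and robust, 3 without LZ22, LZ24 and LZ63, and 0 to 84 with 1 array left out. The 2 member calls became 1 after quantile normalization, without the filter, at the 60th percentile or averaged over probe sets, 0 with eBayes without trend and robust or without LZ22, LZ24 and LZ63, and 0 to 1 with 1 array left out. The Pcna call was lost without AJ2, AJ4, LZ2, LZ3, LZ22, LZ23, LZ25, LZ61 or LZ63, with adjusted p of up to 0.0788, and that of the dimmer Plk1 probe set without each array other than LZ63 (0.0514 to 0.0884). The count of genes lower on LZ61 to LZ63 was 21 after quantile normalization and with equal array medians. The fits with fewer arrays rest on fewer samples; otherwise the cause was not tested. No paired analysis was possible because the labels give no replicate numbers shared between the groups.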

Other observations

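Cdkn1a, the p53-induced inhibitor of cyclin-dependent kinases, resembled Ccnd1 in that its 2 tested probe sets pointed in opposite directions between AJ and LZ2 and LZ3. 1 probe set averaged 1004 ± 124 (SD, n = 3) on the AJ arrays and 643 ± 2.55 (SD, n = 2) on LZ2 and LZ3 (log2 difference 0.64, adjusted p = 0.185 in limma). The other averaged 470.5 ± 138 (SD, n = 3) on the AJ arrays and 733 ± 59.5 (SD, n = 2) on LZ2 and LZ3 (-0.68, adjusted p = 0.148 in limma). Neither passed the test, and Cdkn1a was named after its values were seen.

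Over all 41 measured genes, AJ4 had the highest signal for 7 (17.1%), among them Ccnd3, Cdk4, Mcm2, Mcm4 and Tk1, and the lowest for 0. Of all 8251 genes 11.8% were highest on AJ4 and 7.0% lowest. AJ1, of the same title range and run day, had the highest for 0 and the lowest for 4 (9.8%). Of all 8251 genes 635 (7.7%) were highest on AJ1 and 827 lowest. The members' share of lowest values on AJ1 was thus close to that of all genes.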
